A study of Bos taurus with 79 samples.

Results

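The mitochondrial ribosomal proteins are the nuclear-encoded proteins of the ribosome that works inside mitochondria. They were chosen by symbol: every probe set whose single gene symbol in the platform annotation was MRPL or MRPS followed by a number, with or without a letter. The rule found 84 probe sets of 67 genes, out of 24016 probe sets and 9155 named genes on the array. Of these, 43 genes carried large subunit symbols (MRPL) and 24 carried small subunit symbols (MRPS). Where a gene had several probe sets, the one with the highest mean stood for it. The question set for the family was whether MRPS36 followed the other 66 members on day 13.

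The samples were strips of endometrium, the lining of the uterus, from cross-bred beef heifers with synchronised oestrus, profiled on Affymetrix bovine arrays. Heifers were pregnant or cyclic (not pregnant), and had high or normal progesterone. High progesterone came from an intravaginal progesterone-releasing device inserted on day 3 and left in place until slaughter, and the normal progesterone heifers received none. The 4 combinations were pregnant high (PH), pregnant normal (PN), cyclic high (CH) and cyclic normal (CN), each sampled on days 5, 7, 13 and 16. Each of the 16 groups had 5 arrays, except CH on day 7 with 4, which gave 79 arrays, each named as a biological replicate.

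Mammalian mitochondria translate a small set of proteins, all of them parts of the respiratory chain or the ATP synthase, on ribosomes of their own. The ribosomal RNAs of that machine come from mitochondrial DNA, but every one of its proteins is made from a nuclear gene, translated in the cytosol and imported. Some members descend from bacterial ribosomal proteins, and others have no bacterial counterpart. The symbols are historical: MRPS30 and MRPS18A sit in the large subunit of mammalian structures, and MRPS36 is not a stable ribosomal part in them. In human and yeast cells MRPS36 is a subunit of the 2-oxoglutarate dehydrogenase complex, an enzyme of the citrate cycle, and the current gene table lists KGD4 as its synonym. In bulk tissue, fewer cells of a type and less RNA per cell cannot be told apart.

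All values below are log2 hybridisation values as deposited, and a log2 difference of 1 is a factor of 2. Member probe sets had a median level of 7.94 against 5.04 for all probe sets, and 4 of the 84 had a mean under 3, where signal is near the floor. Array medians lay between 4.71 and 5.12. Stromal and epithelial markers were read to describe the tissue: the mean of 8 stromal markers averaged 11.75 to 12.10 by day, and that of 10 epithelial markers 7.59 to 8.20. With no other tissue to compare, these levels cannot check identity. The lowest epithelial mean of a single array was 7.14, in PH replicate 4 on day 13. Smooth muscle markers averaged over 10 on 3 arrays (PN replicate 4 on day 5, PH replicate 5 on day 7 and PH replicate 4 on day 13). A further 4 arrays had a narrow spread of values or lay far from their group mean, and counts without these arrays are given where they differ.

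The family as a whole was highest on day 5, lowest on day 13 and slightly higher again on day 16. The median of the 67 genes on an array averaged 8.38 ± 0.16 on day 5 (SD, n = 20), 8.10 ± 0.18 on day 7 (n = 19), 7.89 ± 0.15 on day 13 (n = 20) and 8.02 ± 0.17 on day 16 (n = 20). The day 5 arrays lay between 8.19 and 8.67 and the day 13 arrays between 7.57 and 8.11, so these days did not overlap. Across the 16 groups, limma's moderated F test called 61 of the 67 genes (72 of 84 probe sets) at an adjusted p under 0.05. Among all probe sets 50.8% were called, and 77.4% of those above the median level.

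**Figure D1:**
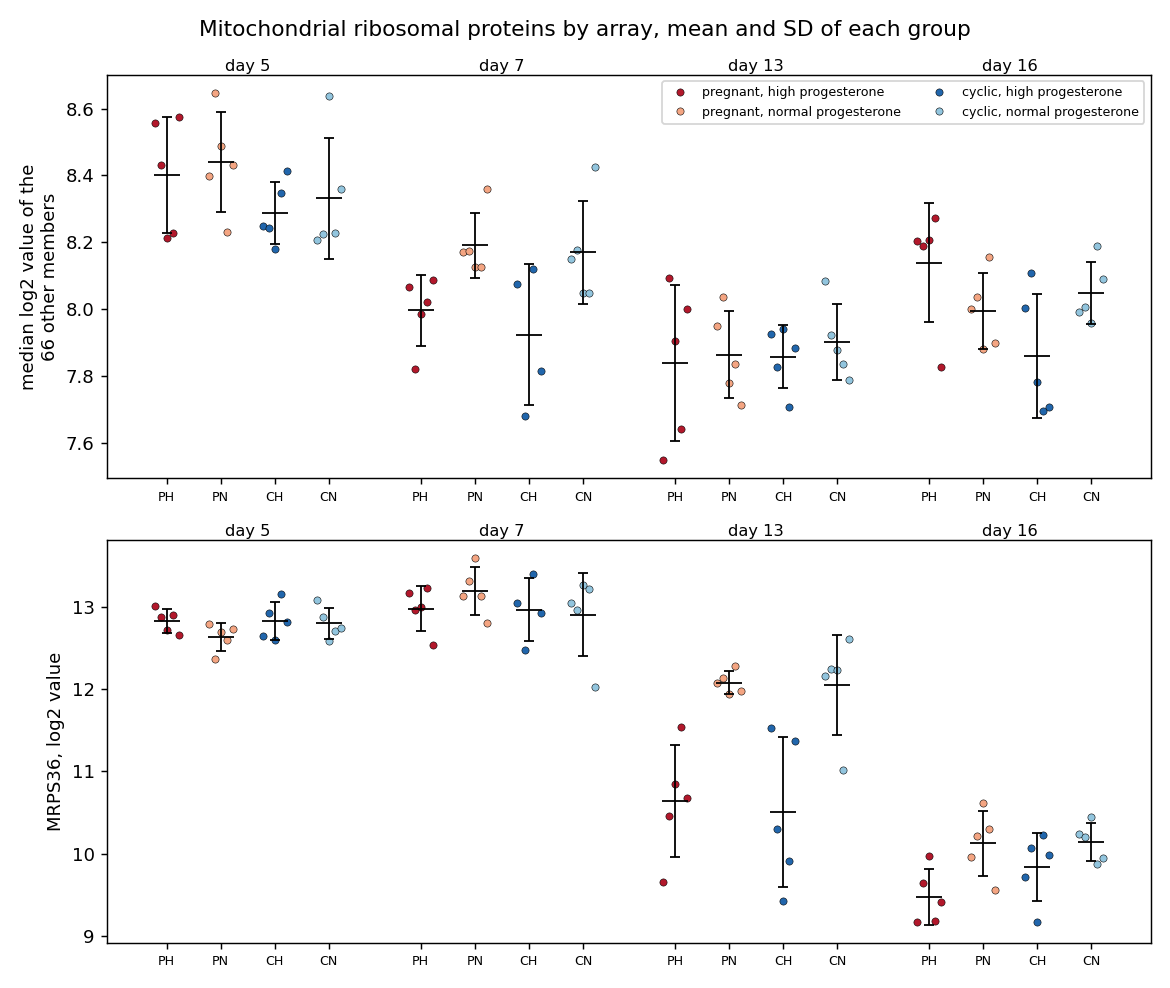
Each point is 1 array in 1 of the 16 groups, with bars for the group mean and SD. The upper panel shows the median log2 value of the 66 members other than MRPS36, which is highest on day 5, and the lower panel shows the log2 value of MRPS36, which stays near 13 on days 5 and 7, separates by progesterone on day 13 and is below 11 in all 20 arrays of day 16.

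Within a day the treatment groups lay close together. On day 5 the family median averaged 8.41 ± 0.17 in PH, 8.48 ± 0.15 in PN, 8.30 ± 0.09 in CH and 8.34 ± 0.18 in CN heifers. On day 7 it averaged 8.02 ± 0.11 in PH, 8.21 ± 0.10 in PN, 7.95 ± 0.22 in CH and 8.19 ± 0.16 in CN heifers. The high progesterone groups of day 7 were therefore the lower ones in both pregnant and cyclic heifers. On day 13 the group averages were 7.86 ± 0.23 in PH, 7.88 ± 0.13 in PN, 7.89 ± 0.12 in CH and 7.93 ± 0.11 in CN heifers. On day 16 they were 8.15 ± 0.17 in PH, 8.01 ± 0.11 in PN, 7.87 ± 0.19 in CH and 8.06 ± 0.09 in CN heifers.

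**Figure D2:**
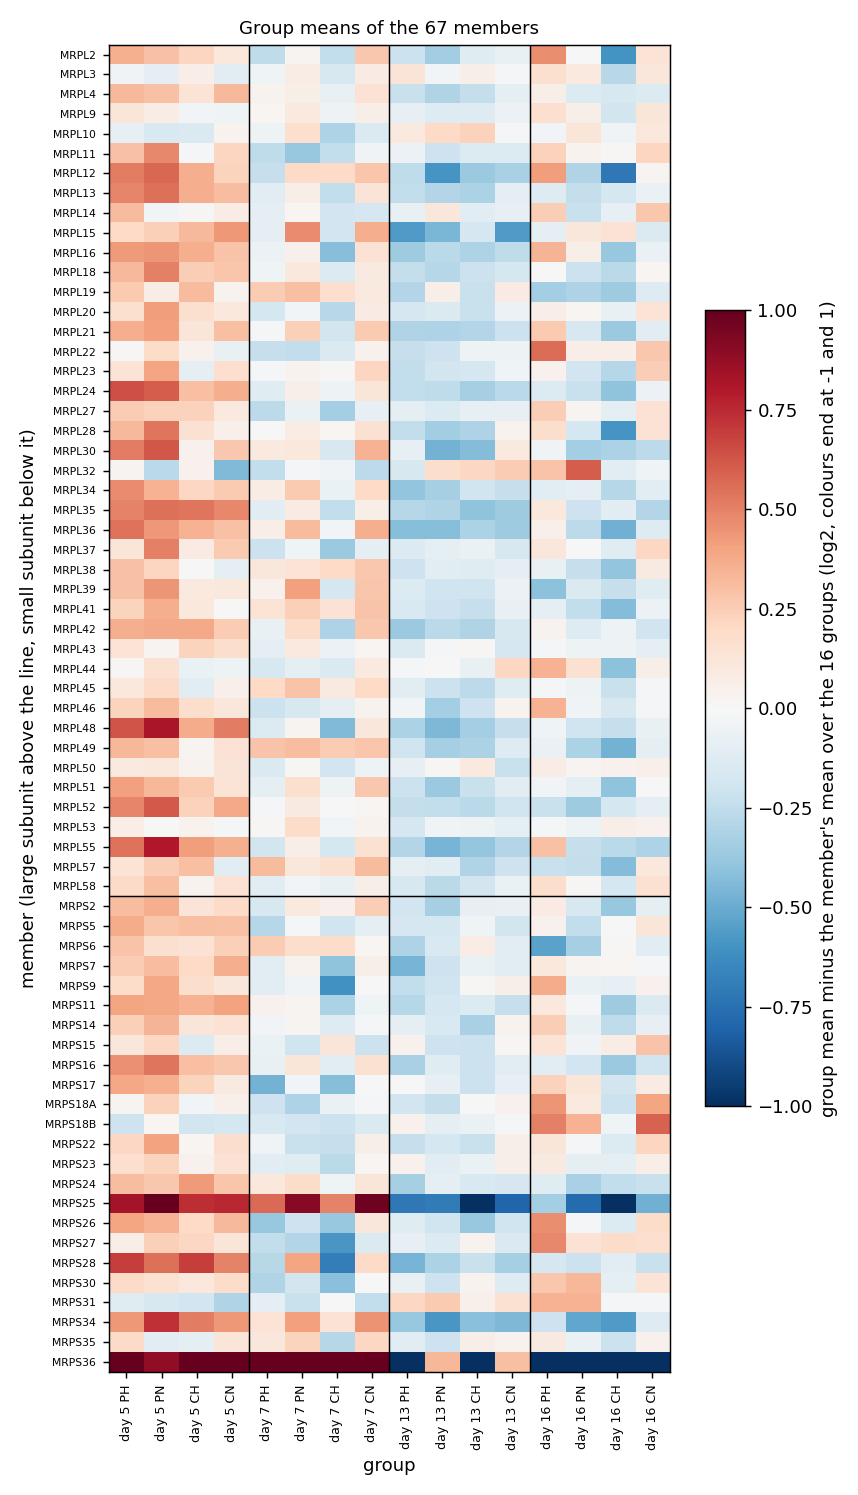
Each line is 1 of the 67 members and each column 1 of the 16 groups. The colour is the group mean minus the member's mean over the 16 groups (log2), with colours ending at -1 and 1, beyond which MRPS36 lies in most groups. Most members are red on day 5 and blue on day 13, MRPS25 drops between day 7 and day 13, and MRPS36 is blue on day 13 only under high progesterone and in all groups of day 16.

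Members followed the family median to different degrees. Over the 16 group means, which share arrays with that median, MRPL18 (r = 0.96), MRPL48 (0.95) and MRPL13 (0.95) were most like the median of the other members. MRPS31 (-0.61), MRPL10 (-0.37), part of the stalk that recruits translation factors, and MRPL32 (-0.33) were least like it. MRPS36 had r = 0.43. The range over the 16 group means was largest for MRPS36 (3.72), MRPS25 (2.40) and MRPS28, and smallest for MRPL9, MRPL50 and MRPL53.

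Between day 5 and day 7 the family fell. On day 7, 41 of the 67 genes were lower than on day 5 and 1 was higher (limma, adjusted p under 0.05), with a median difference of -0.23. Among all probe sets 20.7% were called, 2122 higher (8.84%) and 2840 lower (11.8%), with a median of 0.01. Of those above the median level 33.2% were called, with a median of -0.02. By symbol, the fall covered 25 of 43 large subunit genes and 16 of 24 small subunit genes.

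The largest fall on day 7 was that of MRPS28, a small subunit protein, which averaged 5.86 ± 0.53 on day 7 and 6.53 ± 0.26 on day 5 (SD, n = 19 and 20). Its lowest, median and highest arrays were 4.91, 5.83 and 6.77 on day 7 and 6.08, 6.49 and 7.01 on day 5. The days overlapped, and the fitted difference was -0.70 ± 0.10 (SE, limma, adjusted p = 4.44e-07). The large subunit proteins MRPL48 (-0.69 ± 0.10), MRPL35 (-0.57 ± 0.08) and MRPL55 (-0.56 ± 0.10) came next. MRPL35 had 7.49, 7.97 and 8.60 as its lowest, median and highest values on day 7, against 8.02, 8.55 and 9.03 on day 5, so most arrays of day 7 lay below the lowest of day 5.

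MRPL45, which lies at the exit of the peptide tunnel facing the inner membrane, was the only member called higher on day 7 (0.14 ± 0.05, limma adjusted p = 0.0445). Its call was lost in 21 of the 39 fits that left out 1 array, with adjusted p up to 0.0951. The falls of the 4 genes above held in all 39.

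The family's fall to day 7 was not equally called in each treatment. Within single treatments, 19 genes were lower on day 7 in PH, 15 in PN, 22 in CH and 0 in CN heifers, and none was higher. Of all probe sets 4.87% were called in PH, 4.81% in PN, 15.2% in CH and 0.0291% in CN heifers, and the member probe sets had a median difference of -0.25 in CH and -0.08 in CN heifers. Whether treatments differed in this fall was not tested. Alongside it, 8 of 9 macrophage markers and 5 of 8 stromal markers were lower on day 7, as were 18 of 20 cell cycle genes (median -1.17). The macrophage marker mean lay between 5.71 and 7.92 on day 7 and between 6.14 and 10.14 on day 5. Their part in the family's fall was not tested.

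Between day 7 and day 13 the family fell again, with more of the large subunit symbols called. On day 13, 35 of the 67 genes were lower than on day 7 and 3 were higher (limma), with a median difference of -0.20. Among all probe sets 36.9% were called, 4517 higher (18.8%) and 4340 lower (18.1%), and 57.1% of those above the median level. Of the large subunit genes 28 of 43 fell and 1 rose (median -0.23). Of the small subunit genes 7 of 24 fell, MRPS36 among them, and 2 rose (median -0.07). These classes follow the symbols, so MRPS36, MRPS30 and MRPS18A count as small subunit genes here. The difference between subunits was not tested.

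MRPS36 and MRPS25 were the only members to fall by more than 1 log2 unit. MRPS25, a small subunit protein found only in mitochondria, had 4.67, 5.57 and 6.13 as its lowest, median and highest values on day 13, against 6.48, 7.15 and 7.67 on day 7. No array of day 13 reached the lowest of day 7, and the difference was -1.58 ± 0.10 (SE, limma, adjusted p = 2.97e-22). MRPS25 stayed low on day 16 (5.68 ± 0.44, n = 20).

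MRPS34, which binds the small subunit RNA, was lower by less: its highest array of day 13 was 7.36 and its lowest of day 7 was 7.34 (-0.74 ± 0.07, limma adjusted p = 1.38e-13). MRPL15, a protein with a bacterial counterpart, fell by 0.58 ± 0.11 (limma adjusted p = 1.53e-05), but in CH heifers its difference was 0.024. The 3 that rose were MRPS31 (0.31 ± 0.10), MRPS27 (0.23 ± 0.06), a member with RNA-binding repeats, and MRPL10 (0.21 ± 0.06). Within single treatments, 10 genes were lower on day 13 in PH, 20 in PN, 7 in CH and 15 in CN heifers, and 4 were higher in CH heifers. Of all probe sets 13.7%, 18.4%, 26.6% and 16.2% were called, in the same order of groups. Beside these changes, 8 of 10 endothelial markers were higher on day 13, 3 of 8 stromal markers were higher and 3 lower, and none of 9 macrophage markers was called. Of 20 cell cycle genes 12 were lower and 2 higher (median -0.82). Their part was not tested.

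Between day 13 and day 16 the direction turned for the family as a whole and not for MRPS36. On day 16, 13 genes were higher than on day 13 and 1, MRPS36, was lower (limma), with a median difference of 0.11. Among all probe sets 8.65% were called, 5.03% higher and 3.62% lower, and 13.8% of those above the median level were called. MRPL15 rose by 0.44 ± 0.11, MRPS18B by 0.39 ± 0.07, MRPL22, which lines the exit tunnel, by 0.38 ± 0.07 and MRPS26 by 0.35 ± 0.09. MRPL22 had 8.90, 9.28 and 9.93 as its lowest, median and highest values on day 16 and 8.29, 8.98 and 9.30 on day 13, so the days overlapped. Of the 13 that rose, 11 had fallen in an earlier interval, as had most of the family. Of all 67 genes, 41 were lower on day 7 and 35 on day 13. A fall to day 13 and a rise after it share the day 13 arrays.

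These rises were called mainly in one treatment. Within single treatments, 10 genes were higher on day 16 in PH, 0 in PN, 0 in CH and 1 in CN heifers. The median difference of the member probe sets was 0.28 in PH, 0.14 in PN, -0.06 in CH and 0.13 in CN heifers, with the opposite sign in CH heifers. Of all probe sets 3.64% were called in PH, 1.79% in PN, 0.333% in CH and 0.666% in CN heifers. In PH heifers the family median of replicates 1 to 5 was 7.57, 8.11, 7.94, 7.67 and 8.01 on day 13. On day 16 it was 8.21, 8.20, 8.21, 8.28 and 7.84. The lowest of day 13 were replicate 1, an array with a narrow spread, and replicate 4, high in smooth muscle markers. Their part in the PH rise was not tested. Without the 3 arrays high in smooth muscle markers the count of member probe sets called, over all treatments, was 9, against 15 with them. Over the 3 intervals, 20 genes fell both to day 7 and again to day 13, 20 fell to day 7 with no call to day 13, and 14 fell to day 13 with no call to day 7. In none of the 3 were 7 genes called.

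MRPS36 took a course of its own. It averaged 12.77 ± 0.19 on day 5 (SD, n = 20), 13.01 ± 0.36 on day 7 (n = 19), 11.32 ± 0.97 on day 13 (n = 20) and 9.89 ± 0.43 on day 16 (n = 20). In the interval to day 7, in which most of the family fell, its difference was 0.24 (limma adjusted p = 0.24), the highest of the 67. It was then the member with the largest fall to day 13 (-1.69 ± 0.13, limma adjusted p = 4.69e-17). It was also the only one called lower on day 16 than on day 13 (-1.42 ± 0.13, limma adjusted p = 3.45e-12). The other 66 members ran between -0.19 and 0.44 in that last interval. The highest MRPS36 array of day 16, 10.61, lay below the lowest of day 7, 12.03. MRPS36 was measured by 1 probe set, so no second probe set checks it. Its values are those of the probe set annotated as MRPS36: probe sequences were not used here, and whether it reads MRPS36 alone was not tested. Over the 16 group means its course correlated at r = 0.95 with that of CCNB1, the mitotic cyclin B1 and a close neighbour on the chromosome, a gene looked up after these values were seen. Among 2605 genes compared by course alone, several followed MRPS36 more closely than CCNB1 did, with r up to 0.985 (GJB5). The CCNB1 probe set itself departed from most cell cycle genes. From day 5 to day 7 its mean went from 11.23 to 11.83 in PH, 11.22 to 12.05 in PN, 10.91 to 11.75 in CH and 11.11 to 11.76 in CN heifers. In that interval 18 of 20 cell cycle genes were lower.

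On day 13 MRPS36 did not follow the family under high progesterone. It was 9.65, 10.46, 10.84, 11.54 and 10.67 in the 5 PH heifers, against 12.07, 12.14, 11.94, 12.27 and 11.97 in the 5 PN heifers. It was 11.52, 10.30, 9.43, 9.90 and 11.37 in the 5 CH heifers, against 12.16, 12.24, 12.23, 11.01 and 12.60 in the 5 CN heifers. Every PH value lay below every PN value, while among cyclic heifers 1 CN array (replicate 4, 11.01) lay below 2 CH arrays. The high minus normal difference was -1.49 ± 0.19 (SE, limma, adjusted p = 2.92e-07), -1.44 within pregnant heifers (adjusted p = 0.00527) and -1.54 within cyclic heifers (adjusted p = 0.00137). With each day 13 array left out in turn it stayed between -1.62 and -1.36.

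No other member was called for progesterone on day 13. MRPS36 was thus 1 of 67, where 0.441% of all probe sets were called (11 higher, 0.0458%, and 95 lower, 0.396%). The other 66 members ran between -0.33 (MRPL19) and 0.14 (MRPS30), with a median of -0.02. MRPS36 minus the median of the other members on the same array averaged 2.80 ± 0.69 in PH, 4.22 ± 0.14 in PN, 2.65 ± 0.89 in CH and 4.15 ± 0.61 in CN heifers (SD, n = 5 each), and only the differences between groups have meaning in this measure. Among the 95 probe sets lower with high progesterone on day 13, MRPS36 was the 20th by size and the 3rd by adjusted p. None of the epithelial, stromal, smooth muscle, endothelial, macrophage or lymphocyte markers was called in this comparison.

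**Figure D3:**
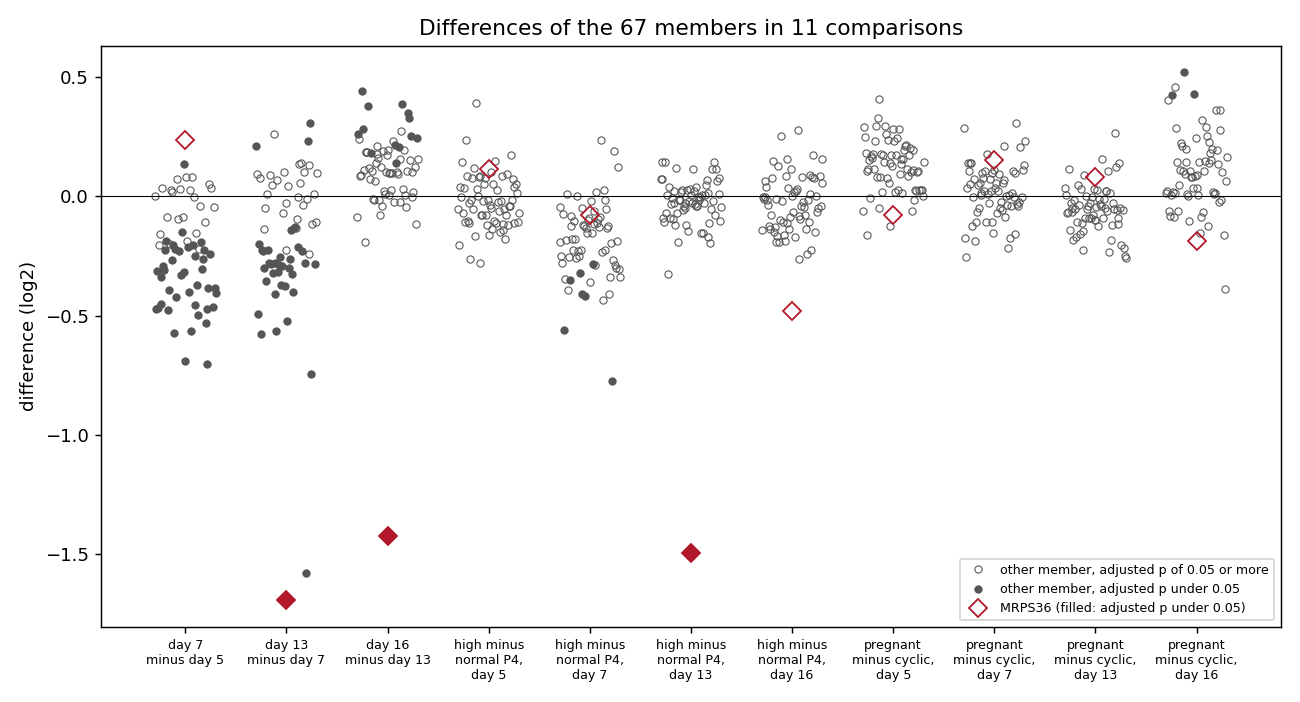
Each point is 1 of the 67 members, and its height is its fitted log2 difference in 1 of 11 comparisons: between successive days, high minus normal progesterone (P4) and pregnant minus cyclic. Filled points have a limma adjusted p under 0.05, and MRPS36 is the diamond, which lies at -1.69 and -1.42 for the last 2 day intervals and at -1.49 for progesterone on day 13, far below all 66 others for day 16 minus day 13 and for progesterone on day 13.

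The progesterone difference of MRPS36 was not called on the other days. It was 0.11 on day 5, -0.08 on day 7 and -0.48 on day 16 (limma adjusted p = 0.331). On day 16 its lowest, median and highest arrays were 9.16, 9.68 and 10.23 under high and 9.55, 10.20 and 10.61 under normal progesterone, so the groups overlapped. The fall from day 7 to day 13 was called in each treatment: -2.34 in PH, -1.12 in PN, -2.46 in CH and -0.85 in CN heifers. The next interval ran the other way round in size, with -1.16 in PH, -1.95 in PN, -0.67 in CH (not called, limma adjusted p = 0.317) and -1.91 in CN heifers. These values share the day 13 arrays.

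No pregnancy difference of MRPS36 was called on day 13. The pregnant minus cyclic difference was 0.08 ± 0.19 (SE, limma, adjusted p = 0.992), and that of the progesterone difference between pregnant and cyclic heifers was 0.10. Both changed sign when certain single arrays were left out, the first between -0.055 (without CH replicate 3) and 0.21, the second between -0.17 (without CH replicate 3) and 0.36. The arrays that turned the first were CN replicate 4 (-0.050), CH replicate 3 and PH replicate 4 (-0.033). Those that turned the second were CN replicate 5 (-0.040), CH replicate 3, CH replicate 4 (-0.051) and PH replicate 4 (-0.13).

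Since MRPS36 is known as a subunit of 2-oxoglutarate dehydrogenase, the genes of that complex and of the citrate cycle were read beside it. OGDH, the catalytic subunit, fell by 1.69 ± 0.18 between day 7 and day 13 (limma adjusted p = 6.38e-12) and by 0.63 ± 0.18 between day 13 and day 16 (adjusted p = 0.0159). Its progesterone difference on day 13 was -0.74 ± 0.26 and was not called (limma adjusted p = 0.292). DLD, the subunit shared with pyruvate dehydrogenase, fell by 0.33 ± 0.07 to day 13. Of the 16 citrate cycle genes measured, 11 fell to day 13 and none rose (median -0.32), where 18.1% of all probe sets were lower and 57.1% of those above the median level were called in either direction. CS, citrate synthase, fell by 0.90 ± 0.06. From day 13 to day 16 the 16 genes did not move together: 2 were called higher and 2 lower (limma), where 8.65% of all probe sets were called. Of the 16 differences in that interval 11 were positive (median 0.03). None of the 16 was called for progesterone on day 13.

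Several members were lower with high progesterone on day 7. Under high progesterone 7 of 67 genes (10.4%) were lower and 0 higher (limma), against 4.7% of all probe sets called, 445 higher (1.85%) and 683 lower (2.84%). Of probe sets above the median level 7.36% were called. The median difference of the 67 was -0.18, against 0.01 for all probe sets and -0.04 for those above the median level. Of the 67, 60 were negative, against 6971 of the 12008 probe sets above the median level. MRPS28 was the largest at -0.78 ± 0.15 (adjusted p = 0.000453). It was 5.94, 5.42, 5.62, 5.83 and 5.41 in PH heifers, against 6.35, 6.23, 6.37, 5.83 and 6.77 in PN heifers. In the 4 CH heifers it was 5.81, 4.96, 5.24 and 4.91, against 6.0, 6.10, 5.53, 6.41 and 6.53 in CN heifers, so in both pairs 1 or more arrays overlapped.

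MRPL15 (-0.56 ± 0.16), MRPL42 (-0.42 ± 0.11) and MRPL39 (-0.41 ± 0.11) were next by size on day 7. With 1 array left out, the count of member probe sets called, 9, went to 14 without CH replicate 2 and to 2 without CH replicate 3. It was 3 without the narrow arrays and 1 without those far from their group mean, sets that both include CH replicate 3. The call of MRPL15 was lost without CN replicate 5, CH replicate 3, PN replicate 1, PN replicate 2 or PH replicate 5 (differences -0.49 to -0.52), that of MRPL39 without CH replicate 3 (-0.35), and that of MRPS28 in no omission. Within pregnant heifers 0 genes were called (0.525% of all probe sets) and within cyclic heifers 4 (3.78% of all). Cell cycle genes were lower in the same comparison, 12 of 20 called with a median of -0.84, and their part was not tested.

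With pregnant and cyclic heifers averaged, 1 member probe set was called for progesterone on day 5 and 0 on day 16. On day 5, 1 of 84 member probe sets was called, the second of 3 for MRPL23 (-0.39, limma adjusted p = 0.026), against 0.908% of all, and the other 2 for MRPL23 stood at -0.26. That call was lost without CN replicate 3 or 4, CH replicate 3, PN replicate 1 or 2, or PH replicate 1. On day 16, with pregnant and cyclic heifers averaged, limma called 0 of 67 genes for progesterone, against 0.0958% of all probe sets, and 4 genes had an unadjusted p under 0.05. The member medians in the 2 statuses had opposite signs. In pregnant heifers 0 genes were called (0.104% of all probe sets) and the member probe sets had a median difference of 0.16. In cyclic heifers 7 genes were lower and 0 higher (2.92% of all probe sets called), with a median of -0.21.

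Few members were called for pregnancy. On day 5 no member was called, against 0.0167% of all probe sets, and 59 of 67 differences were positive (median 0.13), or 88.1%, against 41.7% of all probe sets and 55.5% of those above the median level. This tilt was not particular to the family: 52 of 62 cytosolic ribosomal proteins were positive (83.9%, median 0.06). So were all 6 mitochondrial ribosome genes with other symbols. Mitochondrial aminoacyl-tRNA synthetases (53.3%) and ribosome assembly and RNA modification genes (47.4%) were less tilted. At an unadjusted p under 0.05 there were 18 of 67 genes and 2370 of all 24016 probe sets. No marker was called in that comparison, but all 10 lymphocyte markers (median -0.56) and all 9 macrophage markers (-0.41) had negative differences and all 9 smooth muscle markers positive ones (0.57), and their part was not tested. Single arrays stood out in these markers. On day 5, CH replicate 3 had a lymphocyte marker mean of 7.24 and a macrophage marker mean of 10.14, where the next highest arrays had 3.95 and 7.82. PN replicate 4 had a smooth muscle marker mean of 11.16, where the next highest array had 9.05. On days 7 and 13 no member and 0% of all probe sets were called by limma, with 2 genes each at an unadjusted p under 0.05. On day 16, 3 of 67 genes (4.48%) were higher in pregnant heifers. Of all probe sets 3.16% were called (512 higher, 2.13%, and 247 lower, 1.03%), and of those above the median level 4.76%. The share of the family called thus lay near that of other probe sets. Of cell type markers, 3 of 9 macrophage markers were higher in pregnant heifers (median 0.62), 1 of 10 epithelial markers was higher, and 3 of 10 endothelial and 2 of 8 stromal markers were lower. All 9 smooth muscle markers had negative differences (median -0.40) with none called. Their part was not tested. The macrophage marker mean lay between 5.99 and 7.43 in pregnant and between 5.82 and 7.45 in cyclic heifers. The 3 members were MRPL32 (0.52 ± 0.16, limma adjusted p = 0.0464), which is cut by an inner membrane protease before it joins the ribosome, MRPL44 (0.43 ± 0.11, adjusted p = 0.00979), which has an RNase III fold, and MRPL16 (0.42 ± 0.12, adjusted p = 0.0381).

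MRPL32 had 8.21, 9.08 and 10.07 as its lowest, median and highest values in the 10 pregnant heifers of day 16 and 8.12, 8.68 and 9.16 in the 10 cyclic ones, so the groups overlapped. The highest arrays, 10.07 and 9.89, were both PN. The count of 3 went to 0 without PH replicate 4, to 1 without CN replicate 3, CN replicate 5, CH replicate 4, PN replicate 2 or PN replicate 4, to 5 without CH replicate 2 and to 7 without PH replicate 5. Under high progesterone alone 18 genes were higher in pregnant heifers (7.78% of all probe sets called), and under normal progesterone alone 0 (0.658%). In a fit of day 16 alone none of the 3 was called.

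The difference between those 2 contrasts was tested as an interaction, the progesterone difference in pregnant heifers minus that in cyclic heifers. On day 16 it was positive and called by limma for 8 of 67 genes and 9 of 84 probe sets, against 0.87% of all probe sets (149 positive, 0.62%, and 60 negative, 0.25%). Of probe sets above the median level 1.37% were called. The median over the 67 genes was 0.41, against -0.04 for all probe sets and 0.01 for those above the median level. Of the 67 genes, 59 were positive. MRPL12 had the largest value at 1.46 ± 0.30 (adjusted p = 0.0154), followed by MRPS25 (1.31 ± 0.27), MRPL2 (1.21 ± 0.30), which lies at the peptidyl transferase centre, and MRPL28 (1.09 ± 0.24). MRPL12 is the stalk protein that recruits translation factors, and in human cells it also binds the mitochondrial RNA polymerase. Positive interactions were also called for 3 of 16 citrate cycle genes (18.8%) and 2 of 11 mitochondrial translation factors (18.2%). Of 62 cytosolic ribosomal proteins 47 were positive and 1 was called. Limma called 0 of 15 mitochondrial aminoacyl-tRNA synthetases and 0 of 19 ribosome assembly and RNA modification genes.

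MRPL12 was 9.06, 8.25, 8.61, 9.20 and 7.77 in PH heifers of day 16, against 8.22, 7.99, 7.46, 8.18 and 7.47 in PN heifers. It was 7.94, 8.18, 7.00, 7.04 and 7.05 in CH heifers, against 8.01, 8.25, 8.01, 8.48 and 8.18 in CN heifers. Thus 4 of 5 PH values were above every PN value, and 4 of 5 CH values were below every CN value. MRPS25 separated more cleanly: 6.20, 6.03, 6.11, 6.12 and 5.93 in PH against 5.80, 5.72, 5.61, 5.68 and 5.44 in PN heifers. In cyclic heifers it was 5.34, 5.31, 4.45, 5.23 and 4.97 in CH against 5.85, 5.96, 5.92, 6.05 and 5.93 in CN. Neither pair overlapped.

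**Figure D4:**
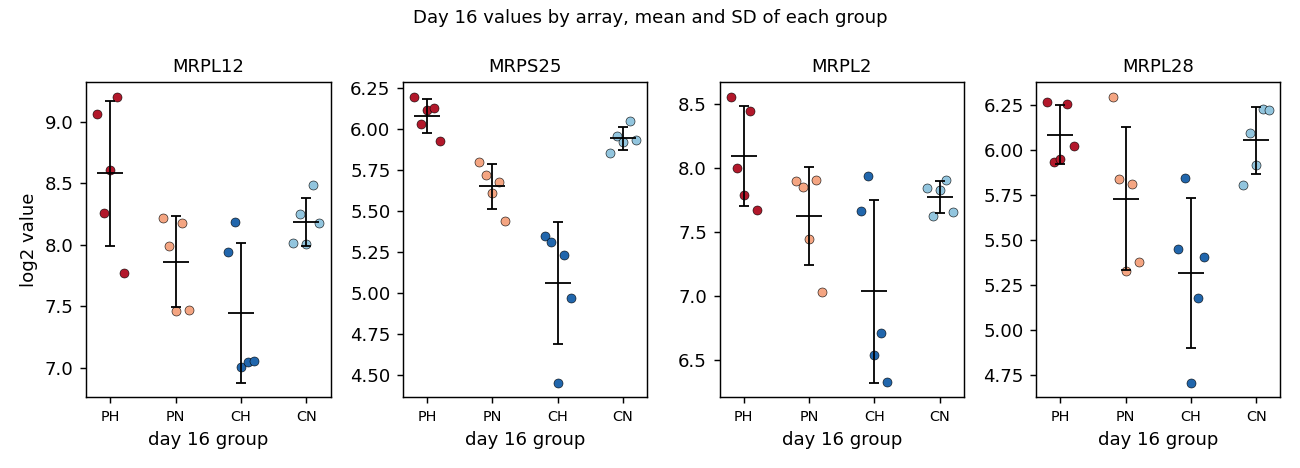
Each point is 1 array of day 16 and its height the log2 value of MRPL12, MRPS25, MRPL2 or MRPL28, with bars for the mean and SD of the 5 arrays of a group. The PH arrays lie above PN and the CH arrays below CN on average in each of the 4 genes, with no overlap in either pair for MRPS25.

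This count depended on most of the day 16 arrays. Of the 20 omissions, 15 moved the 9 called probe sets by more than 1.5 times. It was 0 without CH replicate 3, 2 without PN replicate 3, 3 without CN replicate 2, CN replicate 5, CH replicate 4, CH replicate 5, PN replicate 5 or PH replicate 4, 4 without PH replicate 1 or PH replicate 3, 5 without CN replicate 4, 14 without PN replicate 1 or PH replicate 5, 17 without CH replicate 1 and 22 without CH replicate 2. MRPL12 and MRPS25 lost their calls only without CH replicate 3 (1.35 and 1.16), MRPL28 also without PN replicate 3, and MRPL2 in 10 of the 20 omissions. Epithelial markers had a median interaction of 0.73 with 0 of 10 called. Their mean lay between 8.28 and 8.54 in PH, 7.82 and 8.45 in PN, 7.73 and 8.18 in CH and 8.07 and 8.44 in CN heifers. Their part was not tested.

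No member was called for the interaction on days 5, 7 or 13, against 0%, 0.025% and 0.0208% of all probe sets. At an unadjusted p under 0.05, limma had 1, 2 and 5 genes on those days. The day 7 count of 0 went to 2 member probe sets without CH replicate 2 and to 1 without CH replicate 5.

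Calls were often not shared by all probe sets of a gene. Of the 67 genes, 14 had several probe sets. For the change to day 7, 10 of them had a call: in 4 all probe sets were called the same way and in 6 only some were. For the change to day 13, 8 had a call: in none were all called the same way, in 6 only some were, and in 2 calls were opposite. For MRPS34 the dimmer probe set, with a mean level of 1.66, was not called for that change (-0.0032). For the same interval 2 of the 3 probe sets of MRPL39 were lower (-0.29 and -0.22) and the third, with a mean level of 4.11, was higher (0.58), all called by limma. For MRPL57 one was lower (-0.40) and the other higher (0.36), both called. The direction of these 2 genes on day 13 is uncertain.

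Other genes of mitochondrial translation moved in both directions. Of 6 ribosome-associated genes with other symbols, 3 were lower and 1 higher on day 7 than on day 5: PTCD3 fell by 0.43 ± 0.08 and DAP3 by 0.35 ± 0.09, both small subunit proteins, while OXA1L, the insertase docked to the ribosome, rose by 0.47 ± 0.08. OXA1L was also the only one of the 6 called lower with high progesterone on day 13 (-0.44 ± 0.11). Of 11 translation factors, 6 were lower and 2 higher on day 7, and 4 were lower and 3 higher on day 13 than on day 7. Among all probe sets 20.7% were called for day 7 and 36.9% for day 13 (57.1% of those above the median level), and the shares called on day 13 lay near the last of these: 63.6% of translation factors, 60% of 15 aminoacyl-tRNA synthetases and 57.9% of 19 ribosome assembly and RNA modification genes. TUFM, the elongation factor that brings aminoacyl-tRNA, fell by 0.54 ± 0.08 to day 13, rose by 0.42 ± 0.08 to day 16 and had an interaction of 0.92 ± 0.23 on day 16.

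Among 15 mitochondrial aminoacyl-tRNA synthetase genes, 6 were lower and 3 higher on day 13 than on day 7, with LARS2 at 1.08 ± 0.19 and HARS2 at -0.42 ± 0.07. Among 19 genes of ribosome assembly and RNA modification, 6 were lower and 5 higher, with YBEY at -0.67 ± 0.11 and MPV17L2 at 0.64 ± 0.10. The cytosolic ribosomal proteins moved less: 27 of 62 were lower on day 7 than on day 5, with a median of -0.08, and 13 were lower and 8 higher on day 13, with a median of -0.01. None of the 62 was called for progesterone on day 7 or day 13.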

How the data were processed

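Total RNA from 79 endometrial samples was hybridised to Affymetrix bovine arrays. The values are log2 signals as deposited. The submitters' processing notes name RMA, GCRMA and limma. Which of RMA and GCRMA made the deposited table, and their versions, are not given in the sources used here. Both methods usually set arrays to a common distribution, but the SD of an array here ran from 2.60 to 2.93. Each difference is relative to the other probe sets. No detection calls were used.

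Of 24128 probe sets 112 controls were left out. Names came from GEO's platform annotation (13292 probe sets with 1 symbol, 86 with several, 10638 with none), and all 67 member gene IDs were found in the current RefSeq table (ARS-UCD2.0) with 0 symbols changed. One mean per group was fitted over all 79 arrays with limma 3.58.1 in R 4.3.3 (63 residual degrees of freedom, eBayes, Benjamini-Hochberg over 24016 probe sets, threshold 0.05), giving 15 comparisons. Day changes average the 4 treatments, progesterone averages pregnant and cyclic heifers, and pregnancy averages both progesterone levels. Array precision is limited by the number of arrays, and a call counts probe sets or genes at an adjusted p under 0.05.

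The fit was tested on simulated data. Members and lists were chosen with earlier results of these data known. Named genes were MRPS36, the 4 highest and 4 lowest called differences per comparison, the 3 extremes of mean level (not compared, since levels of different probe sets have no common scale), of range and of correlation, genes whose probe sets disagreed, and up to 2 called members per list and direction. DLD, and genes given in the closing section outside this rule, were chosen after their values were seen. Alternatives were quantile normalisation, median centring, trend and robust moderation, array weights, brighter probe sets only, 1 probe set per gene, the days concerned alone, single treatments, each array left out, the replicate number as a block, and 3 sets of doubtful arrays left out, the last chosen after seeing the data. Same-numbered arrays of a day were not alike (mean correlation of deviations 0.0294, 0.0467, 0.0228 and -0.00919 on days 5, 7, 13 and 16).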

Additional observations from a re-analysis of the deposited data

Results flagged for a closer look

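A lone array stood apart from the others of its group in 13 of 144 tests by Dixon's criterion, which chance meets in about 5 of 100 tests. The tests took several genes and the family median in each of the 16 groups. They share arrays, so they are not independent. For MRPS36 these were CN replicate 5 on day 7 (12.03) and CN replicate 4 on day 13 (11.01), both lower than the rest of their group. The day 13 array is the one CN array that overlapped the CH heifers. MRPS28 had lone low arrays in CN replicate 4 (4.76) and CH replicate 4 (5.39) on day 13 and CN replicate 5 (5.24) on day 16. MRPL15 had one in CN replicate 5 on day 16 (7.25), and MRPL32 in PH replicate 5 on day 7 (8.03). MRPS31 had lone arrays on day 16 in CN replicate 4 (8.18) and CH replicate 3 (8.28), both high, and in PH replicate 5 (6.96), which was low. MRPL48 had a high one in CN replicate 5 on day 7 (7.73) and a low one in PN replicate 3 on day 16 (6.13). PH replicate 5 was also the lone low array of day 16 for the family median (7.84).

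The progesterone difference on day 16 differed between pregnant and cyclic heifers, by limma's interaction test, for 9 probe sets. The values on the log2 scale were 1.46 for MRPL12, 1.31 for MRPS25, 1.21 for MRPL2, 1.09 for MRPL28, 0.78 for MRPS18B, 0.76 for 1 of the 3 probe sets of MRPL23, 0.76 for MRPS34, 0.69 for MRPL21 and 0.64 for MRPL49.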

How the results depend on the processing

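Counts here are member probe sets called by limma. With 1 array left out, progesterone gave 0 to 1 on day 5 and 2 to 14 on day 7, the interaction gave 0 to 2 on day 7 and 0 to 22 on day 16, and pregnancy gave 0 to 7 on day 16. For MRPS36 on day 13 the omissions ran from -0.055 to 0.21 for pregnancy and -0.17 to 0.36 for the interaction. Without the arrays high in smooth muscle markers these 2 values were -0.033 and -0.13, and day 16 minus day 13 gave 9. Without narrow arrays progesterone gave 3 on day 7 and 1 on day 16. Without arrays far from their group mean it gave 0 on day 5, 1 on day 7 and 1 on day 16, and the interaction of day 16 gave 15. With array weights progesterone gave 3 on day 7 and 8 on day 16, pregnancy 1 on day 5 and 18 on day 16, and the interaction 10 on day 13 and 38 on day 16. With 1 probe set per gene progesterone gave 0 on day 5. With only the days concerned, progesterone gave 0 on day 5 and 3 on day 7, pregnancy 0 on day 16 and the interaction 1 on day 16. Fewer arrays set the spread in those fits.

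Single treatments have fewer arrays per contrast. Day 7 minus day 5 gave 21 in PH, 15 in PN, 27 in CH and 0 in CN heifers. Day 13 minus day 7 gave 10, 22, 14 and 17 in that order of groups, and MRPL15 was 0.024 in CH heifers. Day 16 minus day 13 gave 1 in PN, 0 in CH and 2 in CN heifers. Progesterone gave 0 in pregnant and 0 in cyclic heifers on day 5, 0 in pregnant and 5 in cyclic heifers on day 7, and 10 in cyclic heifers on day 16 (9 lower and 1 higher). Pregnancy on day 16 gave 21 under high and 0 under normal progesterone. The cause of the other changes was not tested. The progesterone difference of MRPS36 on day 13 kept its sign and its call under every alternative run (-1.62 to -1.34, highest adjusted p 0.0424). With the replicate number as a block, 46, 44 and 15 were called for the 3 day intervals, and no count moved by more than 1.5 times. The numbers did not pair the arrays. Members with a mean under 3 have little room to show a further fall.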

Other observations

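Some genes beside MRPS36 on the chromosome shared its progesterone difference on day 13, and their courses over the days differed. In the RefSeq order of protein-coding genes (ARS-UCD2.0), MRPS36 lies between CDK7 and CENPH, followed by CCNB1, SLC30A5 and PIK3R1. These neighbours were looked up after the values of MRPS36 were seen, and CDK7, CCNB1, SLC30A5 and PIK3R1 had named probe sets. CCNB1, the mitotic cyclin B1, averaged 9.74 ± 0.52 in PH, 10.76 ± 0.17 in PN, 8.85 ± 1.58 in CH and 11.08 ± 0.47 in CN heifers on day 13 (SD, n = 5 each), a high minus normal progesterone difference of -1.62 (limma adjusted p = 0.00104). CDK7, a kinase of transcription initiation, was lower by both of its probe sets (-0.68, adjusted p = 0.00256, and -0.63, adjusted p = 0.018), and so was SLC30A5, a zinc transporter (-0.63, adjusted p = 0.00933). PIK3R1, the last of these in that order, had -0.27 (limma adjusted p = 0.902). Between day 13 and day 16 the same 3 genes were lower on day 16 (CCNB1 -1.20, SLC30A5 -0.37, CDK7 -0.50 and -0.57), while to day 13 CCNB1 and SLC30A5 were lower (-1.74 and -0.40) and CDK7 was higher by 1 probe set (0.26, limma adjusted p = 0.0413) and not called by the other (0.036).

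Over the 16 group means the correlation with MRPS36 was 0.95 for CCNB1, 0.71 for SLC30A5, 0.27 and 0.09 for CDK7 and 0.26 for PIK3R1. Over the 79 arrays after removing group means it was 0.68 for CCNB1, 0.63 for SLC30A5, 0.47 and 0.39 for CDK7 and -0.04 for PIK3R1. These points share arrays and are given as a description. CCNB1 was the only 1 of 20 cell cycle genes called for progesterone on day 13 and on day 16 (-1.36, limma adjusted p = 0.0325).

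Among 2605 genes with a mean above 5 and a range of at least 1 over the 16 groups, the course of MRPS36 was most like those of GJB5, a gap junction protein (r = 0.985), TXNRD1, cytosolic thioredoxin reductase (0.985), ABRACL (0.984), ARHGAP18 (0.982) and TPD52L1 (0.981). These were named for that likeness.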
